A study of Homo sapiens with 12 samples.

Results

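The collagen genes were taken as the Affymetrix probe sets whose single annotated gene symbol has the form of a collagen alpha chain, COL followed by a type number, the letter A and a chain number. They are 112 of the 54613 probe sets tested and stand for 43 of the 19775 genes named on the array. Of these genes 35 have several probe sets, at most 8, and 8 have 1. No collagen probe set was annotated with a second symbol (0 probe sets). The rule reads the names and no measured value, but it was set with earlier results of these data known.

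Collagens are secreted or membrane proteins built from 3 alpha chains that wind into a triple helix, and the chains of 1 molecule come from 1 gene or from several. Fibrillar types such as I, II, III and V form the cross-banded fibres of connective tissue and scar, type IV forms the sheet of basement membranes, fibril-associated types decorate the fibres, and type VI forms beaded filaments around cells. In the liver, fibrillar collagen is laid down mainly by activated stellate cells and fibroblasts, while endothelial and other cells contribute the basement membrane types.

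Total RNA of 2 established human hepatocellular carcinoma lines was hybridised to Affymetrix Human Genome U133 Plus 2.0 arrays to compare cells exposed to DAAD2 with their controls, 3 arrays in each of 4 groups and 12 in all. Hep3B, labelled as sensitive, received 2 μM DAAD2 for 72 h, and SNU449, labelled as resistant, received 20 μM for 72 h, so that the line and the dose cannot be told apart in any difference between the responses. The controls of both lines received 0.1% DMSO for 72 h. The labels do not give the DMSO content of the cells with DAAD2, so a match of vehicle to the controls cannot be checked. DAAD2 is an N-acetyl cysteine amide of (+)-dehydroabietylamine, a diterpene amine. The paper says in general that its data come from independent experiments and that the array samples were triplicates, without saying that these were separate cultures. Every p-value therefore reflects array-to-array spread within a group, and that spread may be technical. In bulk RNA, fewer cells of a kind and less RNA per cell cannot be told apart.

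Levels below are the deposited RMA values on the log2 scale, where 1 unit is a doubling. Array medians over all probe sets lay between 3.71 and 3.85, and a probe set above that median on the 3 arrays of a group is called above the median here. No detection calls were used, so a level at or below the median cannot be told from background, and the size of a difference against such a group is uncertain. The labels of the lines were checked on marker lists. The hepatocyte list was above the median for 8 of 8 genes in the Hep3B controls, with a summed level of 94.9 to 95.5, and for 4 of 8 in the SNU449 controls, with 36.6 to 40.1. ALB, which codes for albumin, stood at a mean of 14.53 in the Hep3B controls and at 3.18 in the SNU449 controls, where ALB and APOA2 were below the median. FGB, a fibrinogen chain of the same list, ran the other way, at 6.01 in the Hep3B and 10.06 in the SNU449 controls, and rose with DAAD2 in SNU449 by 1.56 (adjusted p = 0.00947 in limma; difference of responses 1.44, adjusted p = 0.0203). Of 5 mesenchymal markers 3 were above the median in Hep3B and 5 in SNU449, though FN1 was lower in SNU449 (-0.81). Of 5 epithelial markers 5 were above it in the Hep3B controls and 2 in the SNU449 controls, where EPCAM, CDH1 and KRT19 were below it. The list for stellate cells or fibroblasts summed to 27.9 to 29.4 in the Hep3B and 30.9 to 32.8 in the SNU449 controls, with 4 of 7 and 5 of 7 genes above the median. Of that list RGS5 was higher in SNU449 (8.18 against 4.40), PDGFRB, DES and THY1 were above the median in the controls of both lines, and PDGFRA and LRAT were below it in all 4 groups. The endothelial gene CDH5 and the leukocyte gene PTPRC were below it in all 4 groups too, while LYZ of the leukocyte list stood at 12.14 in the Hep3B and 3.06 in the SNU449 controls. Of the other endothelial genes, PECAM1 was above the median in all 4 groups, at 5.83 in the Hep3B and 5.88 in the SNU449 controls. VWF was above it on some arrays of each group and below it on others. The difference between the 3′ and 5′ GAPDH control probes, a sign of RNA integrity, was 1.99 on SNU449 DAAD2 replicate 2 and 0.34 to 1.51 on the other arrays.

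The collagen genes above the median were about as many in each line with DAAD2 as without. A gene had at least 1 probe set above the median in 21 of 43 cases in the Hep3B controls, in 21 in Hep3B with DAAD2, in 27 in the SNU449 controls and in 26 in SNU449 with DAAD2. In the controls 19 genes were above the median in both lines. COL2A1, the chain of cartilage collagen, and COL9A3, a fibril-associated chain also known from cartilage, were so in Hep3B alone (2 genes). In SNU449 alone there were 8 genes, COL1A2, COL4A4, COL4A5, COL4A6, COL6A3, COL10A1, COL21A1 and COL23A1. Of these, COL1A2, COL10A1 and COL23A1 were above it on 2 of the 3 Hep3B control arrays for the probe set with the highest mean. For COL10A1 (adjusted p = 0.0876 in limma) and COL23A1 (0.421) that probe set was not called between the controls. The shares of all genes above the median in 1 line alone were not computed. No probe set of 11 genes was above the median on any of the 12 arrays, and among them was COL3A1, the only chain of type III collagen, whose 5 probe sets had group means of 2.69 to 3.19. The spread between arrays was like that of other probe sets: the median SD over 3 arrays of the collagen probe sets was 0.12 in 3 of the groups and 0.18 in SNU449 with DAAD2, against 0.13, 0.12, 0.12 and 0.16 over all probe sets in the Hep3B controls, Hep3B with DAAD2, the SNU449 controls and SNU449 with DAAD2.

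**Figure D1:**
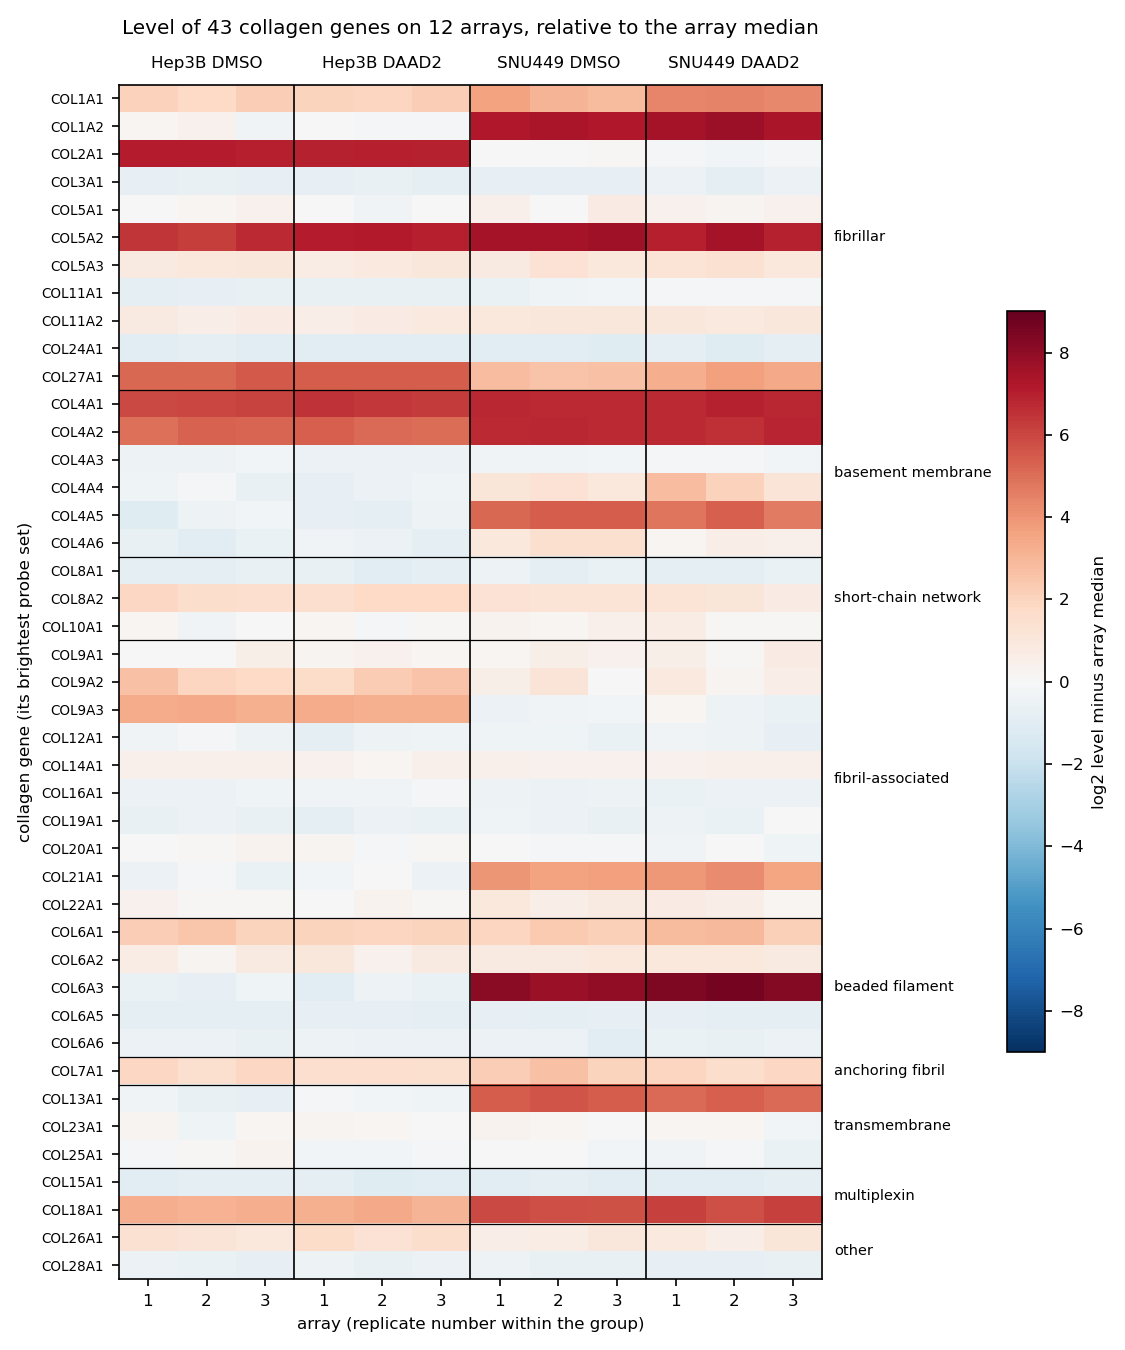
Log2 level of the 43 collagen genes (rows, by class) on the 12 arrays (columns, by group), each gene by its main probe set (highest mean) and each array minus its own median, so red is above and blue below the median. COL2A1 and COL27A1 are darker in Hep3B, and COL1A2, COL4A5, COL6A3, COL13A1 and COL21A1 are dark in SNU449 with and without DAAD2. Colours in different rows come from different probes and do not rank the genes.

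The DMSO controls were compared first, to give the collagen repertoire of each line. SNU449 had higher levels than Hep3B for 26 collagen probe sets and lower levels for 12 at an adjusted p under 0.05 in limma, with Benjamini-Hochberg adjustment over all probe sets. That is 23.2% and 10.7% of the 112, beside a background of 14.8% higher and 14.5% lower among all probe sets, and 33.9% called in all beside 29.3%. At an unadjusted p under 0.05 there were 33 higher and 13 lower (19.2% and 17.9% of all probe sets, 37.1% together), and with a fold over 1.5 besides 24 and 10 (10.8% and 11% of all). The calls lay in 16 genes with a higher and 7 with a lower probe set. Read in the same fit by the probe set with the highest mean, 15 of the 43 genes were higher and 5 lower. That is 34.9% and 11.6%, beside 19.4% and 21.4% of all genes. The median log2 difference of the collagen probe sets was 0.05, and that of all probe sets 0.01. Basement membrane chains were called higher for 9 of 19 probe sets from 6 of 6 genes and lower for 0. Fibrillar chains were called in both directions, 7 of 33 probe sets higher and 5 lower. Fibril-associated chains were called higher for 2 of 22 probe sets and lower for 4, and of the short-chain network probe sets 0 of 7 were higher and 2 lower.

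Among the fibrillar chains the lines differed most in type I and type II. COL1A2, which codes for the α2 chain of type I collagen, the main collagen of bone, skin and scar, had levels of 3.98, 4.20 and 3.50 on the Hep3B control arrays and of 11.09, 11.11 and 11.04 on the SNU449 control arrays. Its log2 difference was 7.19 (SE 0.17, adjusted p = 7.64e-09 in limma), and its other probe sets differed by 8.32 and 2.59. COL1A1, the partner chain of which type I collagen holds more copies, was less far apart: its main probe set, the one with the highest mean, read 5.88, 5.58 and 6.03 in Hep3B and 7.46, 6.82 and 6.68 in SNU449, a difference of 1.16 (SE 0.21, adjusted p = 0.0024 in limma). The arrays of the lines did not overlap for either chain. The other 4 COL1A1 probe sets were not called, and a second one, used again below, differed by 0.38 (adjusted p = 0.0658).

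COL2A1 ran the other way, with levels of 10.81, 10.82 and 10.82 in the Hep3B controls and of 3.86, 3.72 and 3.90 in the SNU449 controls, which straddle the array median. The log2 difference of COL2A1 was -6.99 (SE 0.09, adjusted p = 6.22e-10 in limma), and its second probe set differed by -5.50. COL27A1, a fibrillar chain of cartilage and developing tissue, was lower in SNU449 too, at 6.65, 6.36 and 6.48 against 8.91, 8.92 and 9.30 in Hep3B. It differed by -2.54 (SE 0.14, adjusted p = 1.13e-06), and 2 more of its 5 probe sets were called at -3.13 and -1.60.

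Of type V collagen, which sits inside type I fibres and limits their width, COL5A2 was high in both lines. Its main probe set read 10.18, 10.02 and 10.48 in the Hep3B controls and 11.34, 11.31 and 11.46 in the SNU449 controls, a difference of 1.14 (SE 0.13, adjusted p = 0.000149), and the second COL5A2 probe set differed by 0.99. COL5A1 and COL5A3, the other chains of type V, were near the median with group means of 3.98 and 4.73 in Hep3B and of 4.24 and 4.84 in SNU449, and were not called. COL11A1, whose chain is closely related to that of type V, was called at 0.41 (adjusted p = 0.0343) for 1 of 3 probe sets although it was not above the median in either line.

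The 6 type IV genes lie in the human genome as 3 pairs that face away from each other, COL4A1 with COL4A2 on chromosome 13, COL4A3 with COL4A4 on chromosome 2 and COL4A5 with COL4A6 on chromosome X. In RefSeq annotation of GRCh38.p14 the starts of the pairs are 126, 418 and 379 bases apart. The stretches before the starts are shown because the members of a pair share them, wholly for COL4A1 with COL4A2 and in part for the others. A link of these stretches to the levels was not tested. Capitals mark the letters CCAAT and GGGCGG, searched on both strands, so that ATTGG and CCGCCC are the same matches read from the opposite strand. The first sequence is the whole stretch between the starts of COL4A1 and COL4A2 at chr13:110307158-110307283 on the plus strand. The others are the 250 bases before each start, at chr2:227164374-227164623 on the plus strand for COL4A3, chr2:227164206-227164455 on the minus strand for COL4A4, chrX:108439588-108439837 on the plus strand for COL4A5 and chrX:108439459-108439708 on the minus strand for COL4A6.
COL4A1/COL4A2: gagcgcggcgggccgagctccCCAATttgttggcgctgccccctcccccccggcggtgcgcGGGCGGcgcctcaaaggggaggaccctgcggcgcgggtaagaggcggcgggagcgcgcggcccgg
COL4A3: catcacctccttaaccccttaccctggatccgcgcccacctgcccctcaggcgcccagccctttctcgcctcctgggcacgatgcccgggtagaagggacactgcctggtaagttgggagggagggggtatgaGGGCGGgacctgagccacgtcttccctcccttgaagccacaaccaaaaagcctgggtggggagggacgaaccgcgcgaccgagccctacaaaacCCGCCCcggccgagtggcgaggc
COL4A4: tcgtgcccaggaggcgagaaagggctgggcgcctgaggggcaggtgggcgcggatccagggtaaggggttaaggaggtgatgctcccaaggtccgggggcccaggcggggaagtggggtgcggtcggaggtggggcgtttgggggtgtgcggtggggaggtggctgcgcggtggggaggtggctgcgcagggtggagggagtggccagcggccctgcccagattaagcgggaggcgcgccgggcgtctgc
COL4A5: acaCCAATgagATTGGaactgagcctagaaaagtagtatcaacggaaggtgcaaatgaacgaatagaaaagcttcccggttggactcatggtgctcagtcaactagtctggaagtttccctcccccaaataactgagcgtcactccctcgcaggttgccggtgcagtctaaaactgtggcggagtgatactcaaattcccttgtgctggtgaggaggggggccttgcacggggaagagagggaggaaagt
COL4A6: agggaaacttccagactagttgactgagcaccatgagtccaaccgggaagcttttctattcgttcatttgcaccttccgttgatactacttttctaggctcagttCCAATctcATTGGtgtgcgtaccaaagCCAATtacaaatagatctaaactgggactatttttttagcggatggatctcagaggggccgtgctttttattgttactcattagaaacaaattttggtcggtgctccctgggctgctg

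The stretch between COL4A1 and COL4A2 held 1 CCAAT and 1 GGGCGG, the COL4A3 window 2 GGGCGG, and the COL4A4 window neither. The COL4A5 window held 2 CCAAT and the COL4A6 window 3. The windows of a pair overlap, so part of these matches are the same bases read on opposite strands. COL4A6 has a second annotated start that is not shown. Over all 35116 RefSeq windows of 250 bases, CCAAT occurred in 32.0% and GGGCGG in 42.6%. Among the 43 windows of the 31 collagen genes that had one, CCAAT occurred in 11 and GGGCGG in 24. The letters TATAAA (10.7% of all windows) and TGANTCA (6.57%), of the TATA box and of AP-1 sites, were in none of the 5 sequences shown, and in 7 and 1 of the 43 collagen windows. Such matches describe the letters alone, and the COL4A1/COL4A2 stretch is shorter than the windows of the shares.

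Each type IV gene had at least 1 probe set that was higher in the SNU449 controls, but the size differed among the pairs. COL4A1, one of the chains of the type IV network found in nearly all basement membranes, read 9.73, 9.78 and 9.88 in Hep3B and 10.63, 10.52 and 10.54 in SNU449, a log2 difference of 0.77 (SE 0.09, adjusted p = 0.000233 in limma). COL4A2, its partner chain, read 8.76, 9.09 and 9.01 in Hep3B and 10.55, 10.59 and 10.53 in SNU449 and differed by 1.61 (adjusted p = 5.68e-06), with 1.62 for its second probe set. Both genes of this pair were well above the median in both lines.

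COL4A5, which is mutated in Alport kidney disease, was below the median in Hep3B at 2.69, 3.33 and 3.52 and stood at 8.99, 9.26 and 9.28 in SNU449. The log2 difference of COL4A5 was 6.0 for its main probe set (SE 0.20, adjusted p = 6.67e-08). The second COL4A5 probe set differed by -0.03 and was not called. COL4A6, which faces away from COL4A5, was also below the median in Hep3B, at 3.14, 2.87 and 3.20, and read 4.78, 5.21 and 5.28 in SNU449, a difference of 2.02 (SE 0.15, adjusted p = 1.13e-05). The other COL4A6 probe sets differed by 0.05 and 0.20 and were not called. By their main probe sets, both genes of the X-linked pair were thus above the median in SNU449 and below it in Hep3B.

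In the chromosome 2 pair, COL4A4 read 3.39, 3.65 and 3.10 in Hep3B and 4.93, 5.10 and 4.80 in SNU449, a difference of 1.56 (adjusted p = 5.12e-05). COL4A3 was below the median in both controls for its main probe set, and 1 of its 7 probe sets was called, at 0.72 (adjusted p = 0.00485). That COL4A3 call was lost at an adjusted p of 0.0694 when all 12 arrays shared 1 fit. In the plot of the type IV chains SNU449 lies above Hep3B in the controls for each chain but COL4A3. The control arrays of COL4A3 overlapped for its main probe set (0.12, adjusted p = 0.465 in limma).

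**Figure D2:**
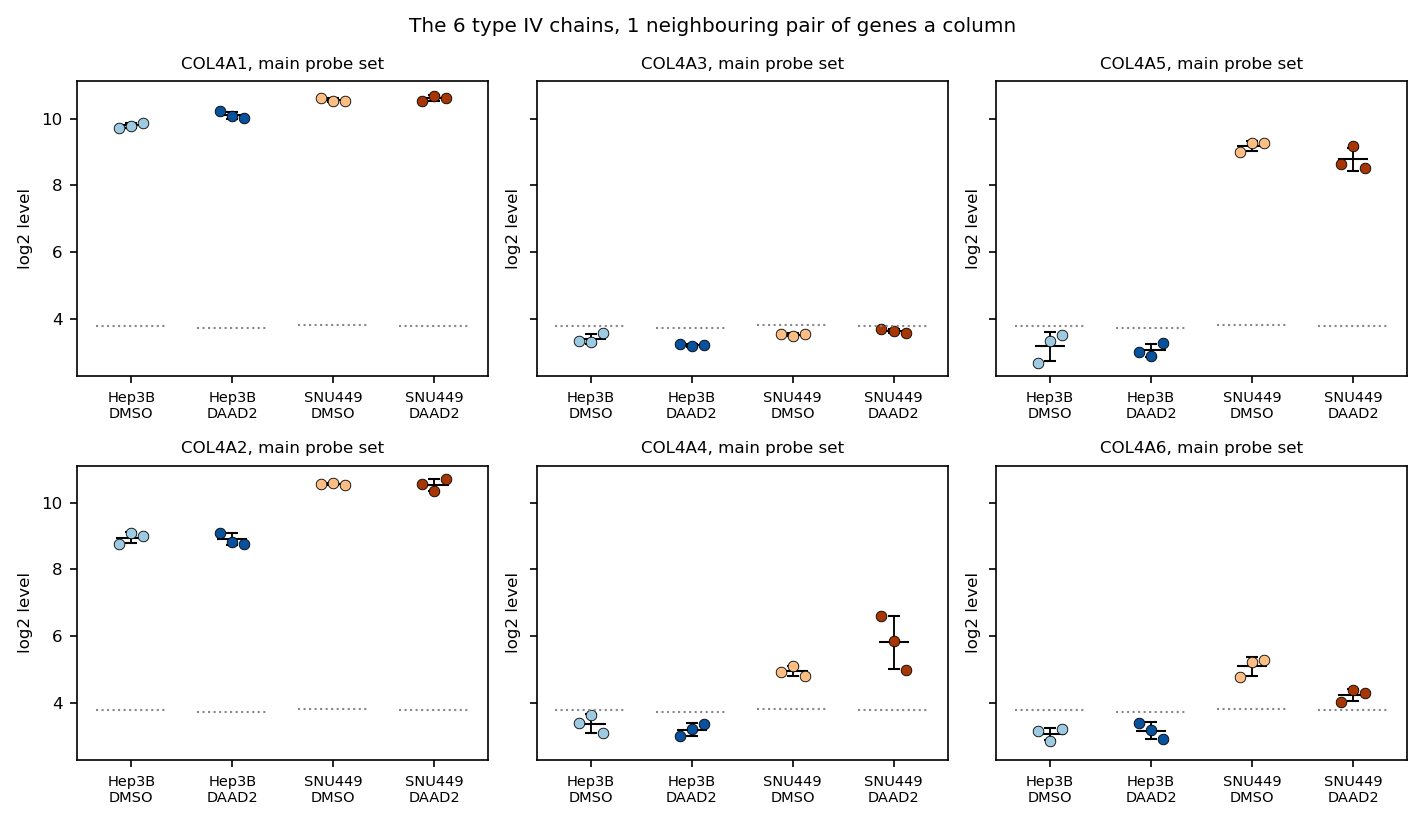
Log2 level of the 6 type IV chains by group, each by its probe set with the highest mean, with the genes of a neighbouring pair in the same column. Points are arrays, dashes the mean and bars the SD of 3 arrays, and the dotted line is the array median of the group. COL4A5 is at about 9 in SNU449 and about 3 in Hep3B, COL4A1 and COL4A2 are far above the median in each group, and COL4A3 is near it throughout.

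Outside the fibres and the basement membrane the contrast between the controls was widest for COL6A3. COL6A3, the large α3 chain of type VI collagen, read 3.17, 3.02 and 3.40 in Hep3B and 12.01, 11.59 and 11.79 in SNU449, a log2 difference of 8.60 (SE 0.14, adjusted p = 1.66e-09 in limma). The partner chains COL6A1 and COL6A2, which assemble with COL6A3, were above the median in both lines: the main COL6A1 probe set read 6.01, 6.32 and 5.76 in Hep3B and 5.76, 6.17 and 5.95 in SNU449, and these values overlapped. Of 8 COL6A1 probe sets 1 was called, at -0.45 (adjusted p = 0.0342), and neither COL6A2 probe set was called. COL6A5 and COL6A6 were below the median in both lines.

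The transmembrane chain COL13A1, which is found at cell adhesion sites and the neuromuscular junction, read 3.49, 3.14 and 3.07 in Hep3B and 9.32, 9.46 and 9.25 in SNU449. It differed by 6.11 (SE 0.13, adjusted p = 5.15e-09), with 1.21 and 2.07 for its other probe sets. COL21A1, a fibril-associated chain, read 3.27, 3.69 and 3.21 in Hep3B and 7.82, 7.43 and 7.54 in SNU449, a difference of 4.21 (SE 0.16, adjusted p = 1.21e-07). COL18A1, a basement membrane multiplexin whose end fragment is endostatin, was above the median in both lines at 7.05, 6.93 and 7.06 against 9.80, 9.58 and 9.57, and differed by 2.64 (SE 0.11, adjusted p = 1.83e-07).

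Of the fibril-associated chains of type IX, which coat type II fibres, COL9A3 and COL9A2 were lower in SNU449. COL9A3 read 7.09, 7.19 and 7.02 in Hep3B and 3.31, 3.45 and 3.59 in SNU449, a difference of -3.65 (SE 0.11, adjusted p = 3.15e-08). COL9A2 read 6.41, 5.69 and 5.61 against 4.41, 4.93 and 3.82, a difference of -1.51 (SE 0.29, adjusted p = 0.00372), with a wider spread in each line and no overlap. COL14A1, a fibril-associated chain of dense tissue, was called lower for 2 of its 4 probe sets, at -1.82 and -0.78, while the main one was not called. COL8A2, a short-chain collagen of the cornea, was called lower for both probe sets, at -2.10 for the second and -0.36 for the main one. COL7A1, the anchoring fibril chain, was called higher for both probe sets at 0.60 and 0.83, and COL22A1 for 1 of 3 at 0.64.

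Most of these calls kept their side of the threshold without any 1 array, and the exceptions were small differences. The main COL8A2 probe set was called without Hep3B DMSO replicate 3 and had an adjusted p of 0.0506 to 0.133 without each of the other arrays. The second COL4A1 probe set (difference 0.54) lost its call without SNU449 DMSO replicates 2 and 3 and Hep3B DMSO replicate 3, at 0.0717 to 0.0816. A second COL4A4 probe set (difference 0.64) lost it without replicates 1 and 3 of either control, at 0.0937 to 0.115. The main COL7A1 probe set lost it without SNU449 DMSO replicates 1 and 2 and Hep3B DMSO replicate 2, at 0.067 to 0.109, and the second without replicates 2 and 3 of either control, at 0.0546 to 0.0852. The COL6A1 probe set called lower lost it without each array but SNU449 DMSO replicate 2, at 0.0536 to 0.122, and COL11A1 without SNU449 DMSO replicates 2 and 3 and Hep3B DMSO replicates 1 and 2, at 0.0653 to 0.126. The second COL1A1 probe set gained a call without SNU449 DMSO replicate 2, at 0.0457. Some markers of the lines differed between the controls too, as given above, while others did not or ran against their list. Their part was not tested.

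**Figure D3:**
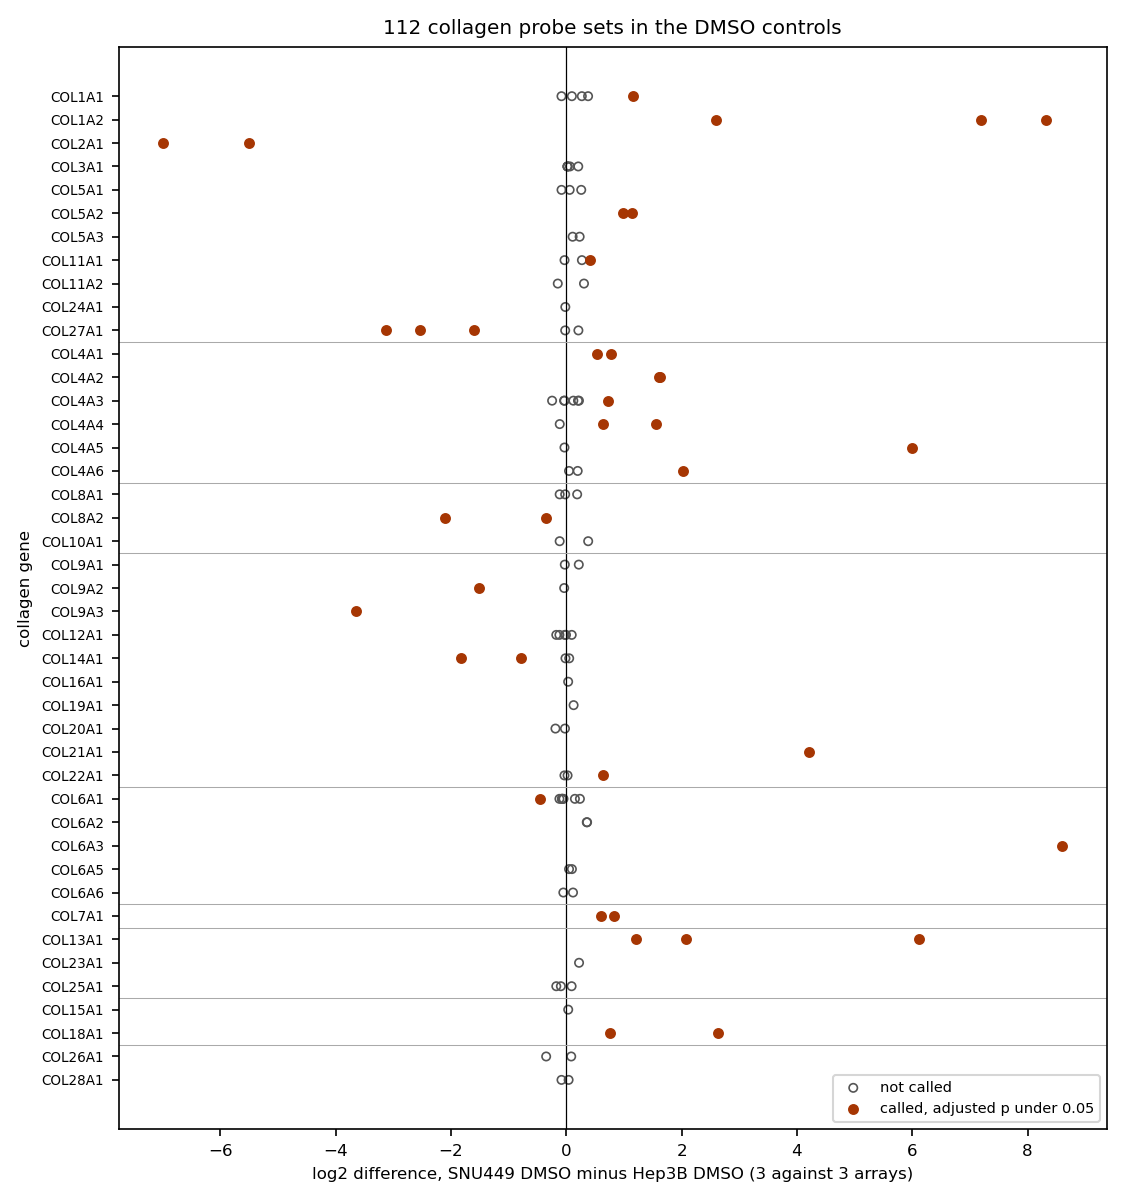
Log2 difference of the 112 collagen probe sets between the DMSO controls, SNU449 minus Hep3B, with 1 row a gene and grey lines between classes. Filled points were called at an adjusted p under 0.05 in limma, 26 to the right of 0 and 12 to the left. COL6A3 at 8.60 and COL1A2 at 8.32 lie farthest to the right and COL2A1 at -6.99 farthest to the left.

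In Hep3B, 2 μM DAAD2 gave no called collagen probe set in either direction, 0 of 112 in limma beside a background of 0% of all probe sets. At an unadjusted p under 0.05 there were 6 higher and 7 lower, which is 11.6% of the collagen probe sets beside 15% of all (9.53% higher and 5.47% lower), and with a fold over 1.5 besides 1 and 0 (1.42% and 0.201% of all). With a variance trend and robust moderation in limma 1 was called, COL5A2. The log2 differences ran from -0.38 to 0.60, with a median of -0.08 beside -0.02 over all probe sets. COL5A2 was nearest to the threshold: its main probe set read 10.18, 10.02 and 10.48 with DMSO and 10.77, 10.83 and 10.75 with DAAD2, a difference of 0.55 (SE 0.13, adjusted p = 0.109), and the second differed by 0.57 (adjusted p = 0.133). The DAAD2 arrays lay above the control arrays for both, by less than the test asked for.

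COL14A1 had the largest difference in Hep3B, at 4.63, 5.18 and 4.66 with DMSO and 5.63, 5.58 and 5.06 with DAAD2 for 1 of its 4 probe sets, and the arrays overlapped (0.60, adjusted p = 0.204). COL4A1 read 9.73, 9.78 and 9.88 with DMSO and 10.22, 10.09 and 10.01 with DAAD2 (0.31, adjusted p = 0.197). COL5A1 (-0.37, adjusted p = 0.26), COL6A1 (-0.34, adjusted p = 0.308), COL26A1 (0.31, adjusted p = 0.356) and COL7A1 (-0.30, adjusted p = 0.346) completed the 6 largest differences by main probe set among genes with a mean above the median. The second COL8A2 probe set read 5.22, 5.29 and 5.25 with DMSO and 4.83, 5.18 and 4.60 with DAAD2 (-0.38, adjusted p = 0.266), the lowest difference of the 112. The cartilage chain COL2A1, high in this line, read 10.64, 10.70 and 10.68 with DAAD2 against 10.81, 10.82 and 10.82 with DMSO and was not called. A p that misses the threshold with 3 arrays a group does not show that these levels were equal.

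In SNU449, 20 μM DAAD2 gave 3 collagen probe sets called higher and 2 called lower, 4.46% of the 112 beside 1.46% of all probe sets (1.04% higher and 0.417% lower). The higher ones were in the fibrillar genes COL1A1 and COL27A1, and the lower ones in the basement membrane genes COL4A6 and COL4A2. At an unadjusted p under 0.05 there were 9 higher and 7 lower, 14.3% of the collagen probe sets beside 11.8% of all (6% higher and 5.8% lower), and with a fold over 1.5 besides 4 and 2 (1.84% and 1.45% of all). The differences ran from -0.85 to 1.21, with a median of 0.04 beside 0.01 over all probe sets.

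COL1A1 rose for 2 of its 5 probe sets. The main COL1A1 probe set read 7.46, 6.82 and 6.68 with DMSO and 8.22, 8.22 and 8.16 with DAAD2, a log2 difference of 1.21 (SE 0.19, adjusted p = 0.0232 in limma), or 2.32-fold. The second read 5.05, 4.61 and 4.72 with DMSO and 5.60, 5.87 and 5.54 with DAAD2, a difference of 0.87 (SE 0.15, adjusted p = 0.03), or 1.83-fold. The DAAD2 arrays lay above the control arrays in both, and in the main one they lay closer together than the controls. The other 3 did not follow: 1 of them, also above the median, read 6.61, 6.44 and 6.49 with DMSO and 6.52, 6.19 and 6.36 with DAAD2, and the remaining 2 had group means of 2.97 to 3.60, below the median. That probe set is of the kind whose probes can bind other sequences, and the main and second ones are of the kind shared by several transcripts.

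COL1A2, the partner chain of COL1A1, read 11.09, 11.11 and 11.04 with DMSO and 11.31, 11.49 and 11.18 with DAAD2 in SNU449, a difference of 0.25 that was not called (adjusted p = 0.47), and another of its probe sets differed by 0.54 (adjusted p = 0.196). COL27A1 rose for 1 of 5 probe sets, the main one, from 6.65, 6.36 and 6.48 to 7.08, 7.49 and 7.22 (0.77, SE 0.14, adjusted p = 0.0365 in limma). The other COL27A1 probe sets that were called between the lines differed by 0.36 and 0.24 and were not called (adjusted p = 0.571 and 0.724 in limma). Over all the COL27A1 probe sets but the main one, the differences ran from -0.22 to 0.36, so they did not share a direction.

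The basement membrane chain COL4A6 fell for its main probe set, from 4.78, 5.21 and 5.28 with DMSO to 4.03, 4.39 and 4.29 with DAAD2, with no overlap of the arrays (-0.85, SE 0.16, adjusted p = 0.0435 in limma). The other COL4A6 probe sets differed by -0.08 and -0.06 and were not called. COL4A2 fell for its second probe set, from 7.28, 7.21 and 7.16 to 6.63, 6.19 and 6.59 (-0.75, SE 0.14, adjusted p = 0.0396). The main COL4A2 probe set read 10.55, 10.59 and 10.53 with DMSO and 10.56, 10.35 and 10.70 with DAAD2, and these arrays overlapped, so the probe sets of COL4A2 disagree. COL4A1, the partner of COL4A2, read 10.63, 10.52 and 10.54 with DMSO and 10.53, 10.69 and 10.63 with DAAD2 and was not called. COL4A5, the neighbour of COL4A6, read 8.99, 9.26 and 9.28 against 8.63, 9.17 and 8.53 (-0.40, adjusted p = 0.429).

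Some chains had wide differences that did not pass. COL4A4 read 4.93, 5.10 and 4.80 with DMSO and 6.60, 5.84 and 4.98 with DAAD2, so that 2 of the DAAD2 arrays lay above the controls and 1 among them (0.87, SE 0.33, adjusted p = 0.339). COL6A1 read 5.76, 6.17 and 5.95 with DMSO and 6.67, 6.68 and 5.99 with DAAD2, with 1 array again among the controls (0.49, adjusted p = 0.367). The COL7A1 probe sets went opposite ways, by -0.50 (adjusted p = 0.274) and 0.72 (adjusted p = 0.515). COL6A3, the type VI chain that set SNU449 apart, read 12.01, 11.59 and 11.79 with DMSO and 12.20, 12.40 and 12.12 with DAAD2 (0.44, adjusted p = 0.209), and the 3 COL13A1 probe sets differed by -0.34, -0.30 and -0.56 without a call. The 22 fibril-associated and 15 beaded filament probe sets gave 0 calls in limma, with 0 and 2 at an unadjusted p under 0.05.

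The SNU449 calls depended on single arrays. COL1A1 (main probe set) was not called without SNU449 DMSO replicate 2 (adjusted p = 0.112) or 3 (0.106) or DAAD2 replicate 1 (0.101) or 3 (0.06), with differences of 1.06 to 1.45 over all such fits, and COL1A1 (second probe set) was not called without the same arrays, at 0.0527 to 0.15. COL27A1 was not called without any 1 of the 6 SNU449 arrays, at 0.0533 to 0.168. COL4A6 was not called without SNU449 DMSO replicate 2 or 3 or DAAD2 replicate 1 or 3, at 0.0937 to 0.197, and COL4A2 without any 1 array but DAAD2 replicate 2, at 0.0637 to 0.157. Under other scalings COL4A6 had an adjusted p of 0.0567 to 0.074, and COL4A2 one of 0.0732 after quantile normalization and 0.0591 after cyclic loess, which are not calls. Without SNU449 DAAD2 replicate 2, the array with the largest GAPDH difference, 2 collagen probe sets were called higher and 2 lower. The calls over all probe sets moved likewise, from 798 to 105 without SNU449 DMSO replicate 3 and to 1168 without SNU449 DAAD2 replicate 2.

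**Figure D4:**
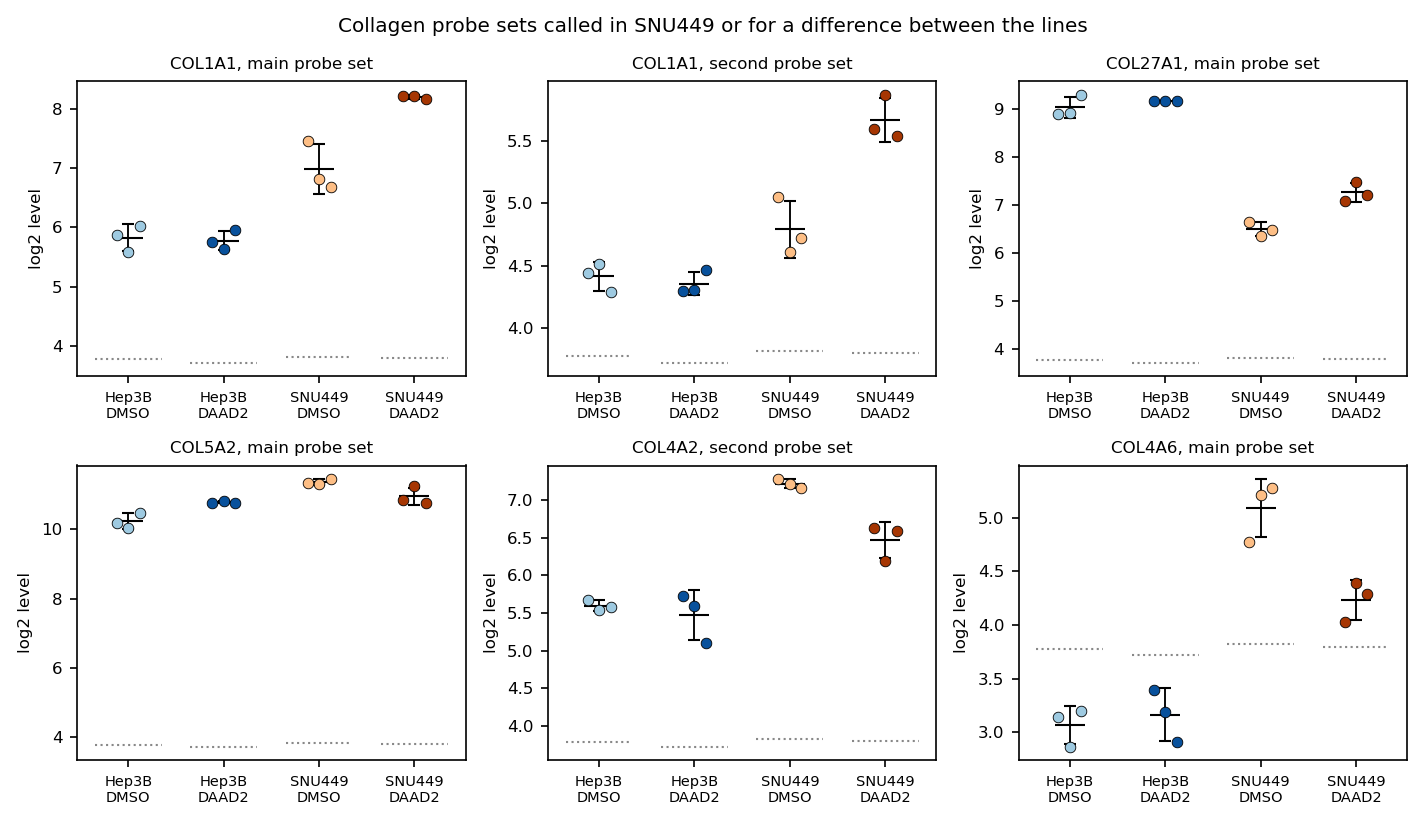
Log2 level by group of the 6 collagen probe sets called for DAAD2 in SNU449 or for a difference between the responses, with points for arrays, a dash for the mean, bars for the SD of 3 arrays and a dotted line for the array median of the group. The level axes differ between panels and do not start at 0. Both COL1A1 probe sets rise with DAAD2 in SNU449 while their Hep3B groups overlap, and the COL5A2 mean with DAAD2 lies 0.55 above the control mean in Hep3B and differs by -0.42 in SNU449, neither of which was called.

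Whether the lines responded differently was tested as the difference of the responses, DAAD2 minus DMSO in SNU449 minus the same in Hep3B, over all 12 arrays. Of the collagen probe sets 2 were called higher and 1 lower, 2.68% beside 2.01% of all probe sets (0.797% higher and 1.21% lower). At an unadjusted p under 0.05 there were 13 higher and 6 lower, 17.0% beside 14% of all (5.97% higher and 8.05% lower), and with a fold over 1.5 besides 7 and 6 (2.26% and 4.52% of all). Over all probe sets the direction of these calls followed the scaling: 435 higher and 661 lower (39.7% higher) became 592 and 467 (55.9% higher) after quantile normalization and 621 and 416 (59.9% higher) after cyclic loess. The collagen calls named next kept their direction under these scalings.

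The responses of COL1A1 differed by 1.26 (SE 0.25, adjusted p = 0.0237 in limma) for the main probe set and by 0.93 (SE 0.18, adjusted p = 0.0224) for the second. In Hep3B the first COL1A1 probe set read 5.88, 5.58 and 6.03 with DMSO and 5.75, 5.63 and 5.95 with DAAD2, and the second 4.44, 4.52 and 4.29 with DMSO and 4.30, 4.31 and 4.46 with DAAD2. These Hep3B arrays overlapped in both probe sets.

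COL5A2 was the chain called lower, with a difference of responses of -0.97 (SE 0.20, adjusted p = 0.0247 in limma). In SNU449 its main probe set read 11.34, 11.31 and 11.46 with DMSO and 10.86, 11.24 and 10.76 with DAAD2 (-0.42, adjusted p = 0.256), while in Hep3B it was higher with DAAD2 by 0.55, and neither response alone was called. Its second probe set gave -0.93 (adjusted p = 0.061). COL5A2 neighbours COL3A1 on chromosome 2, which was below the median in each group.

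COL4A6 (-0.95, adjusted p = 0.0548), COL4A4 (1.05, adjusted p = 0.264), COL6A1 (0.83, adjusted p = 0.146) and COL27A1 (0.65, adjusted p = 0.11) had the next largest differences of responses by main probe set among genes with a mean above the median, and did not pass. Of the other uncalled probe sets, 1 of COL4A3 differed by 0.72 and 1 of COL13A1 by -0.65. The responses of COL4A2 (second probe set) differed by -0.62 (adjusted p = 0.203), those of COL6A3 by 0.59 (adjusted p = 0.237) and those of COL1A2 by 0.47 (adjusted p = 0.355). For COL27A1, COL4A6 and COL4A2, called in SNU449 and not in Hep3B, a difference between the lines was therefore not called.

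Single arrays mattered here too. COL1A1 (main probe set) was not called without SNU449 DMSO replicate 2 or 3, SNU449 DAAD2 replicate 1, Hep3B DMSO replicate 1 or 3 or Hep3B DAAD2 replicate 1 or 2, at adjusted p of 0.0543 to 0.0736. COL1A1 (second probe set) was not called without SNU449 DMSO replicate 2 or 3, Hep3B DMSO replicate 1 or 2 or Hep3B DAAD2 replicate 1 or 2, at 0.0581 to 0.0701. COL5A2 was not called without those arrays or without SNU449 DAAD2 replicate 1, at 0.0534 to 0.0754. Without SNU449 DAAD2 replicate 3, COL4A4 (1.46, adjusted p = 0.0317 in limma) and COL6A1 (1.06, adjusted p = 0.0324) gained calls. COL4A6 gained a call without SNU449 DMSO replicate 1, SNU449 DAAD2 replicate 2 or Hep3B DAAD2 replicate 3. The same probe set was called without dim probe sets, with a variance trend and robust moderation, and with 1 probe set a gene. COL27A1 gained a call after cyclic loess (adjusted p = 0.0425 in limma). Without SNU449 DAAD2 replicate 2, 2 collagen probe sets were called higher and 3 lower.

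**Figure D5:**
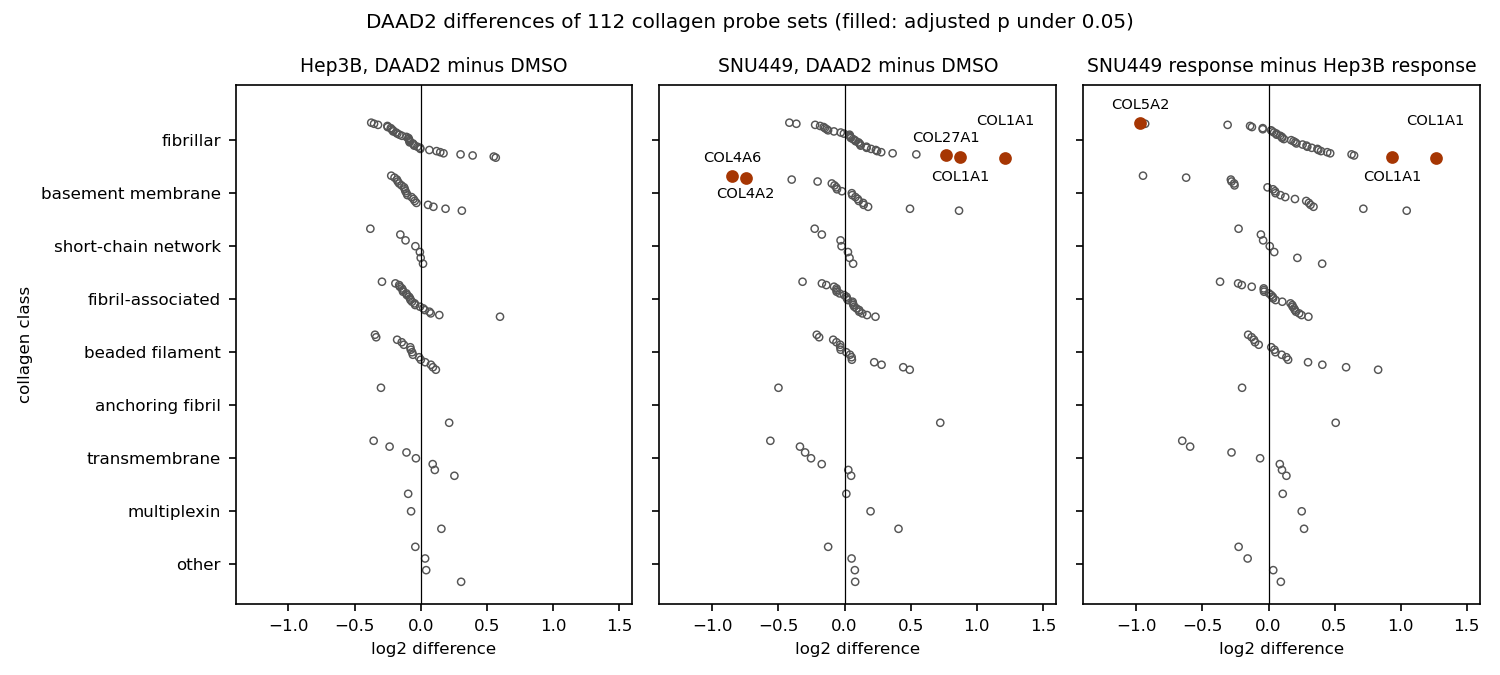
Log2 difference of the 112 collagen probe sets with DAAD2 in Hep3B (left), in SNU449 (middle) and as the difference between these responses (right), by collagen class. Within a class the points are spread vertically for display, and filled points with a gene name were called at an adjusted p under 0.05. The left panel holds 0 filled points, the middle one 5 and the right one 3.

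The genes that make, bind and organise collagen were read from 4 lists, each gene by its probe set with the highest mean. In Hep3B 0 genes were called by limma with DAAD2 in each list, with 7 of 34 biosynthesis genes, 1 of 9 receptors, 6 of 14 fibril organisers and 4 of 15 genes of the TGF-β axis at an unadjusted p under 0.05, beside 20.2% of all genes read the same way. Of the biosynthesis genes P3H2, a prolyl hydroxylase, differed by 0.97 and SEC24D, a coat protein of procollagen export, by 0.89. Of the 6 organisers at an unadjusted p under 0.05, 2 were higher and 4 lower, and the median difference of the list was -0.12. Thrombospondin 1 (THBS1) differed by 0.84 (adjusted p = 0.159 in limma) and the proteoglycan LUM by 0.75 (0.21), and the lowest difference of the list was -0.63. Of the TGF-β axis the ligand TGFB2 differed by 0.63 (0.254).

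In SNU449 limma called 1 of 34 biosynthesis genes, 0 of 9 receptors and 1 of 14 organisers. In the TGF-β axis it called 1 of 15 genes higher and 1 lower. Of all genes read by 1 probe set 2.38% were called (1.82% higher and 0.561% lower). LOX, the oxidase that cross-links collagen, was the 1 of 34 biosynthesis genes called, from 5.94, 6.16 and 6.35 with DMSO to 6.85, 7.46 and 6.97 with DAAD2 (0.94, adjusted p = 0.0434 in limma). THBS2, a matricellular protein, was 1 of 14 organisers, from 8.23, 7.87 and 7.98 to 8.77, 9.25 and 8.85 (0.93, adjusted p = 0.0297). Among 15 genes of the TGF-β axis, TGFBI, a secreted protein that binds collagen, rose from 9.53, 9.48 and 9.49 to 10.60, 10.37 and 10.51 (0.99, adjusted p = 0.00566), and CCN2, a matricellular growth factor, fell from 10.24, 10.17 and 10.17 to 9.26, 9.74 and 9.36 (-0.74, adjusted p = 0.0424). The DAAD2 and control arrays did not overlap for these 4 genes, which were named because limma called them on the same arrays. The share of all genes without overlap was not computed.

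TGFBI remained called without each array, at an adjusted p of at most 0.0495. LOX, CCN2 and THBS2 kept their calls without SNU449 DAAD2 replicate 2 and lost them without each of the other 5 SNU449 arrays, at 0.0815 to 0.165 for LOX, 0.105 to 0.172 for CCN2 and 0.052 to 0.145 for THBS2. LOX and CCN2 were also not called with arrays centred on their median, at 0.0676 and 0.0668. Of the 9 receptors 0 were called in SNU449 by limma, with 1 at an unadjusted p under 0.05 (16.6% of all genes), the endocytic collagen receptor MRC2. MRC2 read 6.41, 6.08 and 6.06 with DMSO and 6.77, 6.93 and 6.66 with DAAD2 (0.60, adjusted p = 0.0769), and 5.49, 5.41 and 5.49 against 5.30, 5.03 and 5.39 in Hep3B. It was the 1 listed gene whose responses differed between the lines (0.83, adjusted p = 0.0325), where 3.28% of all genes were called (1.46% higher and 1.82% lower). That call was lost without SNU449 DMSO replicate 2 or 3, SNU449 DAAD2 replicate 1, Hep3B DMSO replicate 1, 2 or 3 or Hep3B DAAD2 replicate 1 or 2, at 0.0602 to 0.0963, and with a variance trend and robust moderation, at 0.0539.

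Between the DMSO controls the lists split. Of the biosynthesis genes 7 were higher in SNU449 and 17 lower, with 7.04 for the cross-linking oxidase LOXL2 and 6.21 for P3H2 at one end and -3.06 for the procollagen proteinase enhancer PCOLCE2 and -2.89 for the foldase FKBP10 at the other. Of the receptors 4 were higher, among them the integrin chains ITGB1 (1.76) and ITGA10 (1.35), and 1 was lower. Of the organisers 3 were higher, SPARC (5.02), THBS2 (4.63) and THBS1 (3.89), and 4 lower, with -2.93 for the proteoglycan BGN. Of the TGF-β axis 10 were higher and 2 lower, with 6.48 for TGFB2 and 3.48 for the co-receptor TGFBR3. Of all genes read by 1 probe set, 40.8% were called in this comparison, 19.4% higher and 21.4% lower.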

How the data were processed

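Total RNA of 12 samples was hybridised to the Affymetrix U133 Plus 2.0 design for human genes. The authors deposited log2 values made with RMA, which corrects background, normalizes between arrays and summarises each probe set. The paper's methods state that raw data were normalized in BRB Array Tools, with the RMA version not given in the sources used here. Groups were taken from the labels, and 0 columns of values per array were left unused.

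Of the probe sets, 62 controls were left out and 54613 were tested. Symbols came from the platform annotation, and a match to RefSeq by gene identifier changed 0 symbols: 41091 probe sets had 1 symbol, 1801 several and 11721 none. The members and the gene lists were chosen with earlier results of these data known. Groups were compared two-sided with limma 3.58.1 in R 4.3.3 (lmFit and eBayes), without a filter on low values, and called at a Benjamini-Hochberg adjusted p under 0.05 over all probe sets. Each line was fitted on its own 6 arrays, and the difference of responses on all 12. The scripts were tested on simulated data. The exact permutation test of 3 against 3 arrays cannot go below 0.1 and was not used. Arrays give no read depth, and their number limits the precision.

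The probe set with the highest mean stood for a gene. Named were the chains of types I, III, IV, V and VI, the collagen genes called, filled up to 6 with the largest uncalled differences among genes above the median, the 10 largest called in each direction between the controls, and per list the 4 largest called or the 2 largest uncalled. Other probe sets of named genes, and COL14A1 (the probe set with the largest Hep3B difference), COL7A1, COL11A1, COL13A1 and COL22A1 where outside that rule, were added after their values were seen. Alternatives were all 12 arrays in 1 fit, the replicate number as a block, leaving out dim probe sets, 3 scalings, a variance trend with robust moderation, 1 probe set a gene, a fold over 1.5 with an unadjusted p under 0.05, and leaving out each array. Python 3.11.15, pandas 2.3.3, numpy 2.4.6 and matplotlib 3.10.9 made the tables and plots.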

Additional observations from a re-analysis of the deposited data

Results flagged for a closer look

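The difference between the DAAD2 responses of the lines, SNU449 minus Hep3B, passed the interaction test in limma for 3 collagen probe sets and 1 collagen receptor. That is 2.68% of the 112 collagen probe sets beside 2.01% of all probe sets. For the receptors it is 1 of 9, where 3.28% of all genes were called. COL1A1 differed by 1.26 for the main probe set and by 0.93 for the second on the log2 scale, COL5A2 by -0.97 and MRC2 by 0.83. Of 12 fits that each left out 1 array, the main COL1A1 probe set stayed called in 5 and the second in 6. COL5A2 stayed called in 5 of them and MRC2 in 4. The MRC2 call was lost with the replicate block (adjusted p = 0.0521 in limma) and with a variance trend and robust moderation (0.0539). The lines also received different doses, so line and dose cannot be told apart. Groups of 3 arrays are too small for the test of single outlying arrays.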

How the results depend on the processing

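No named log2 difference changed sign under the alternatives run (0 reversed). In Hep3B the 0 collagen calls stayed 0 without each array, and 1 probe set was called higher with a variance trend and robust moderation and 1 at a fold over 1.5 with an unadjusted p under 0.05. In SNU449 the 3 higher calls became 1 with the replicate block and 0 to 2 without each array; the 2 lower calls became 1 with the replicate block, with arrays centred on their median and with 1 probe set a gene, 0 after quantile normalization and cyclic loess, and 0 to 2 without each array. For the difference of responses the 2 higher calls became 1 with 1 probe set a gene, 7 at the fold threshold and 0 to 4 without each array. The 1 lower call became 3 with a variance trend, 3 without dim probe sets (chosen after the data were seen), 2 with 1 probe set a gene, 6 at the fold threshold and 0 to 3 without each array. Between the controls the 26 higher and 12 lower calls became 16 and 5 of 43 genes with 1 probe set a gene, and 23 to 26 and 10 to 11 without each array. Over all probe sets the SNU449 count of 798 became 262 with the replicate block and 1850 with all 12 arrays in 1 fit, and the Hep3B count of 0 became 319 with a variance trend, 220 with 1 probe set a gene, 154 with all 12 arrays, 77 with centred arrays, 6 after quantile normalization, 4 after cyclic loess and 0 to 6 without each array. The difference of responses had 1096 calls and 435 to 2321 without each array. The cause of these shifts was not tested. The labels number the arrays without stating a pairing. Deviations of same-numbered arrays correlated at -0.23, -0.27 and 0.09 in Hep3B and at -0.01, -0.08 and -0.06 in SNU449. Those of differently numbered arrays ran from -0.17 to 0.34 in Hep3B and from -0.06 to 0.11 in SNU449. With 3 arrays a group such values cannot decide whether the numbers pair the arrays. With the replicate block, LOX (adjusted p = 0.072 in limma), THBS2 (0.0902) and CCN2 (0.0953) were not called in SNU449.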
